A study of Mus musculus with 6 samples.

Results

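The variable (V) segments of the immunoglobulin kappa light chain were examined in LSK cells from mouse marrow. These cells lack lineage markers, carry Sca-1 and Kit, and include haematopoietic stem cells and multipotent progenitors. The deposited gene table has 160 rows named Igkv, all on chromosome 6 of GRCm38, and the 100 rows with a count of at least 15 summed over the 6 libraries were taken as members. The libraries were 3 from mice lacking Mc5r, the melanocortin 5 receptor, and 3 from wild-type (WT) littermates. The series describes the mice of both genotypes as irradiated, and no dose or time is given in the sources used here. The deleted part of Mc5r, the age and the sex of the mice, and whether a library is 1 mouse or a pool are not given either, so the SDs and p-values below measure the spread between libraries, which may be technical. Mc5r itself had 0, 0 and 1 counts in the Mc5r-null libraries and 181, 157 and 198 in the WT libraries. Gene counts summed to between 13983016 and 14076870 in the Mc5r-null libraries and to between 14903723 and 14953169 in the WT libraries. Kit and Ly6a, which encodes Sca-1, were present in every library, at 256 ± 5.21 and 66.6 ± 9.54 CPM (counts scaled to a common library total) in Mc5r-null and at 241 ± 2.95 and 59.3 ± 10.6 CPM in WT (SD, n = 3 each).

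A kappa light chain gene is assembled during B cell development when the RAG recombinase joins a V segment to a J segment upstream of the constant gene Igkc. Each B cell usually keeps 1 productive kappa or lambda rearrangement, and the plasma cell that descends from it transcribes that rearranged gene at a very high level, so Igkv transcripts are known as a readout of B lineage cells and above all of plasma cells. Haematopoietic stem cells carry the segments in germline form. In bulk RNA, more cells of a type and more RNA per cell cannot be told apart. The segments lie in both orientations, and those that point the opposite way from Igkc are joined by inversion, the others by deletion.

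The 3′ coding ends of the segments on which the results turn are printed here because they hold the germline part of the CDR3, the complementarity-determining region at the V-J joint, which is the stretch of the light chain that the choice of V segment and J segment sets. The sequences are the last 72 coding bases of GENCODE release M21 transcripts (GRCm38, chromosome 6), 5′ to 3′ on the coding strand, and the capitals run from the conserved cysteine codon to the segment's end. The first 6 had the largest mean share of Igkv counts in Mc5r-null libraries.
Igkv1-117: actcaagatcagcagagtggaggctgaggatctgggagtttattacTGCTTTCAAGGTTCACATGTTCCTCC
Igkv10-96: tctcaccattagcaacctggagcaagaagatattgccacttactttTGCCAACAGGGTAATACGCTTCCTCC
Igkv1-110: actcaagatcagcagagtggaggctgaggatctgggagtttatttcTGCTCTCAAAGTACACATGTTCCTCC
Igkv6-17: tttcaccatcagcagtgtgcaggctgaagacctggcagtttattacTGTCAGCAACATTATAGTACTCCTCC
Igkv5-39: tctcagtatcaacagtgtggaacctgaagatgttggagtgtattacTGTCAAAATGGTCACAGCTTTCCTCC
Igkv8-30: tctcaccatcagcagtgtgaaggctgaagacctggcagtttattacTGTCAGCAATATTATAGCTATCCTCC
The next 3 rose far more than the locus as a whole.
Igkv7-33: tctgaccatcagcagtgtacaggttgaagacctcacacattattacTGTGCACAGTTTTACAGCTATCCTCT
Igkv9-129: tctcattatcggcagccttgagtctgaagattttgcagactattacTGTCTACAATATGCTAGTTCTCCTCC
Igkv14-100: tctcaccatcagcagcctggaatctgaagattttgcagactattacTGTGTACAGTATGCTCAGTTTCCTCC
The last 2 were the members that fell.
Igkv1-133: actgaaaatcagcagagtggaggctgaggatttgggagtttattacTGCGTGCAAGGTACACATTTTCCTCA
Igkv8-26: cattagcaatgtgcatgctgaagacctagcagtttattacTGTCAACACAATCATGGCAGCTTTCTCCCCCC
A cysteine codon (TGT or TGC) directly after a tyrosine or phenylalanine codon (TAT, TAC, TTT or TTC) was searched in frame, on the coding strand, in the last 45 coding bases. It was found in 93 of the 95 members with a coding sequence (97.9%) and in 98 of all 100 Igkv rows with one (98%). The members without it were Igkv6-29 and Igkv6-20, a near-identical pair. From that codon to the end, 63 of the 93 members had 26 bases, and the range was 21 to 32 bases, with Igkv8-26 at 32.

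The members held more of the RNA in Mc5r-null LSK cells. Their counts summed to 154848, 157170 and 156173 in the Mc5r-null libraries, against 57077, 57317 and 56160 in the WT libraries. That was 1.11 ± 0.00862% of all gene counts in Mc5r-null and 0.381 ± 0.00364% in WT (SD, n = 3 each), a ratio of 2.92, and the genotypes did not overlap. An exact two-sided permutation test over the libraries gave p = 0.1, the smallest that 3 against 3 allows, so this test cannot pass 0.05. After scaling of the libraries by TMM, the summed level was 2.99-fold higher, or 1.58 on the log2 scale, while the median log2 fold change of all genes tested was -0.0047. Igkc, the constant gene that every complete kappa transcript carries, rose 3.34-fold (edgeR adjusted p = 1.52e-12), to 14017 ± 41.3 CPM in Mc5r-null, against 4290 ± 17.9 CPM in WT. There were 0.793 ± 0.00605 Igkv counts for each Igkc count in Mc5r-null and 0.888 ± 0.00708 in WT (exact permutation p = 0.1). Per length, on the deposited FPKM scale, the same ratio was 1.02 ± 0.00874 in Mc5r-null and 1.15 ± 0.0105 in WT. The ratio was thus lower in every Mc5r-null library than in any WT library on both scales.

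The use of the locus was broad, and the order of the segments was much alike in the genotypes. Igkv1-117 (68121046 to 68121827, plus strand) was first by counts in both. It held 9141, 9221 and 9039 counts in the Mc5r-null libraries and 3252, 3016 and 3034 in the WT libraries, or 5.85 ± 0.0590% of Igkv counts in Mc5r-null and 5.45 ± 0.222% in WT (SD, n = 3 each). Its shares did not overlap between the genotypes, by a small margin. Igkv10-96 (68631963 to 68632442, minus strand) was second in both, with 4.63 ± 0.0243% in Mc5r-null and 5.40 ± 0.105% in WT, so that its share was lower in Mc5r-null while its count was higher. Igkv1-110 held 4.13 ± 0.0585% in Mc5r-null and 4.08 ± 0.0960% in WT, and these shares overlapped. Per length, Igkv1-117 led in Mc5r-null with 1610 ± 10.7 FPKM, ahead of Igkv10-96 with 1433 ± 3.91 FPKM. In WT the order was turned, with 514 ± 21.1 FPKM for Igkv1-117 and 572 ± 11.1 FPKM for Igkv10-96.

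**Figure D1:**
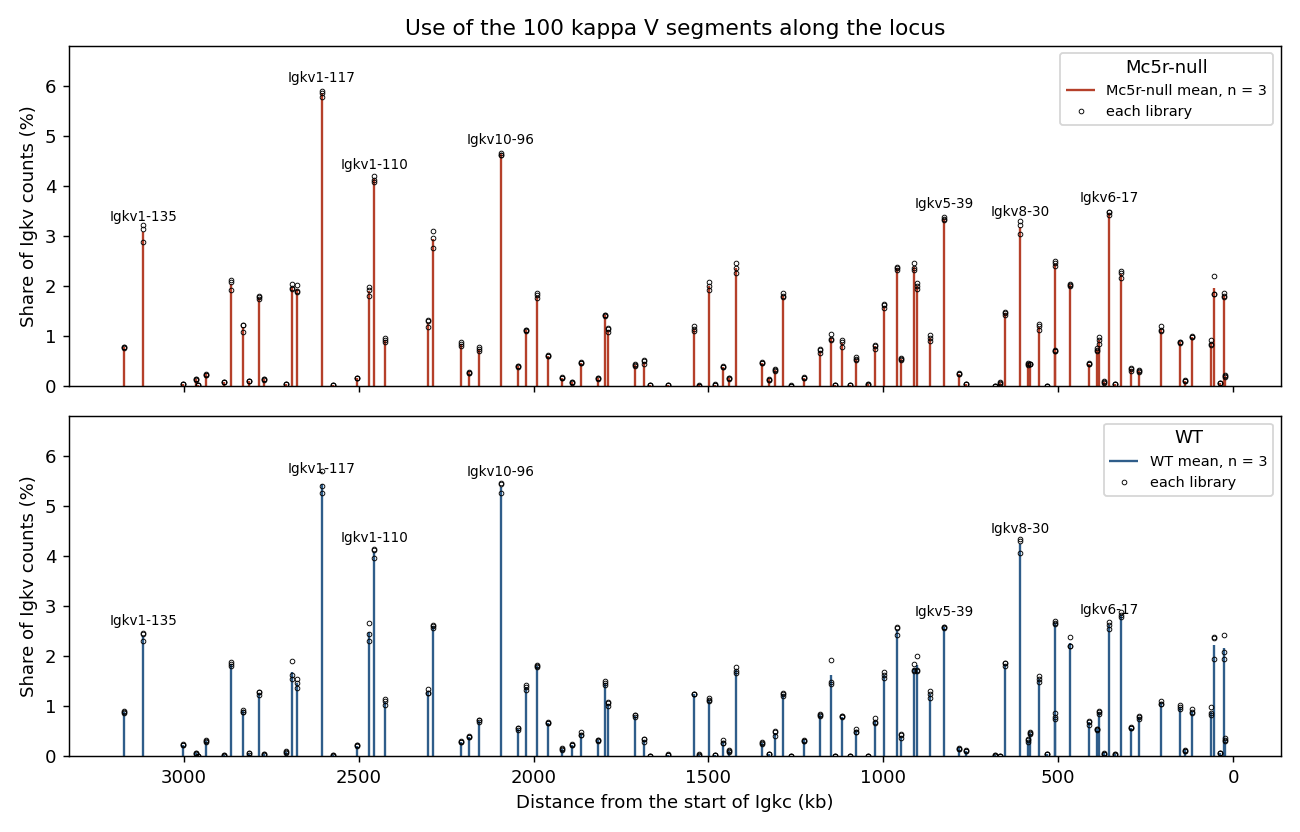
Share of Igkv counts (%, y axis) of the 100 members against their distance from the start of Igkc in kb (x axis), for Mc5r-null above and WT below; lines are means of 3 libraries and circles are the libraries. Igkv1-117 and Igkv10-96 were the highest in both genotypes, and members with near-zero shares lay between highly used ones along the whole locus.

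Further down, 17 segments were enough to hold 50% of the Igkv counts in each of the 6 libraries. The 10 most used segments of a library held 35.5 ± 0.113% in Mc5r-null and 35.1 ± 0.333% in WT (SD, n = 3 each), and 8 segments were among the first 10 in both genotypes. The effective number of segments, which is the number of equally used segments that would give the same concentration of counts, was 44.2 ± 0.0792 in Mc5r-null and 44.6 ± 0.293 in WT (exact permutation p = 0.1). With FPKM in place of counts the direction turned, with 41.2 ± 0.0802 in Mc5r-null and 40.6 ± 0.263 in WT, so no direction is given for it. Across the 100 members the mean shares of the genotypes had a Spearman rho of 0.966. This is a description across segments that share libraries and depth.

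Most members rose with the locus. Of the 98 members that passed the filter on low counts, 92 rose and 2 fell in Mc5r-null, with an edgeR adjusted p (quasi-likelihood test, adjusted by Benjamini-Hochberg over the whole table) below 0.05, against 16.8% that rose and 16.1% that fell among all 15257 genes tested. Of the 98, 8 passed the filter through the Mc5r-null libraries alone, and all 8 were called higher (Igkv1-131, Igkv9-129, Igkv2-116, Igkv4-78, Igkv4-56, Igkv4-54, Igkv4-51 and Igkv7-33). Igkv8-26 passed through the WT libraries alone and was called lower. For these 9 the filter itself favoured a difference, and 1 member passed through neither genotype alone. Among the 88 that passed in both genotypes separately, 84 were higher, 1 was lower and 3 were not called. The median log2 fold change of tested members was 1.54, with quartiles of 1.19 and 1.98. There were 63 members within 0.5 of the summed change of 1.58 on the log2 scale, and these held 89.3% of Igkv counts in Mc5r-null and 88.7% in WT. A further 16 lay more than 0.5 above it and 19 more than 0.5 below it. The 10 members that gained most made up 36.6% of the 7309 CPM gained in all.

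The spread of the changes was wider among rarely counted segments. The 73 members with at least 1000 summed counts were all called higher, with log2 fold changes between 0.22 and 3.08 (SD 0.48 across members). The 25 tested members below that had changes between -3.26 and 7.75 (SD 2.09). The highest of these is Igkv4-56, whose value is no measured fold because its WT counts were all 0. That pseudogene had 24, 20 and 33 counts in the Mc5r-null libraries and none in WT. Against a floor of 3 counts over the 3 WT libraries, which is 0.0670 CPM, it was at least 27.3-fold higher in Mc5r-null. This floor covers counting error only.

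**Figure D2:**
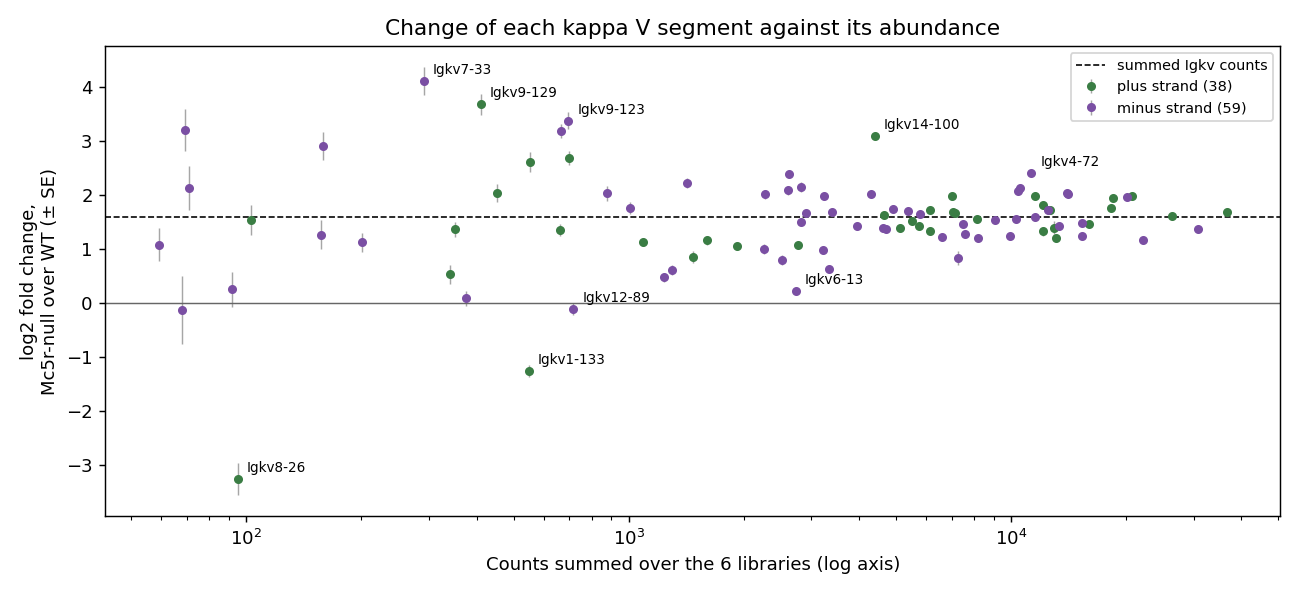
Fitted log2 fold change, Mc5r-null over WT, with its SE (y axis) against the counts summed over the 6 libraries (x axis, log scale) for the 97 tested members with a count in WT, coloured by strand; the dashed line is the change of the summed Igkv counts, 1.58. Segments with at least 1000 counts lie between 0.22 and 3.08, while segments under 1000 counts reach from -3.26 to 4.10.

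Among tested members with an average of at least 1 on the log2 CPM scale, 4 of the 5 largest rises were in rarely counted segments. Igkv7-33 (70058632 to 70059199, minus strand), the only row of its family, had 103, 70 and 101 counts in the Mc5r-null libraries, against 6, 5 and 6 in the WT libraries, and rose 17.2-fold (log2 fold change 4.10 ± 0.25 SE, edgeR adjusted p = 7.73e-06). The groups stood far apart, although every WT library was under the filter's minimum. Igkv9-129 (67839793 to 67840266, plus strand) had 130, 133 and 115 counts in Mc5r-null and 8, 9 and 15 in WT (log2 fold change 3.67 ± 0.20 SE, edgeR adjusted p = 3.51e-06). Igkv7-33 and Igkv9-129 entered the test only through the Mc5r-null libraries, so their p-values are no independent support for a rise. Igkv9-123, of the same family, had 216, 224 and 189 counts in Mc5r-null and 26, 23 and 17 in WT, a rise of 10.3-fold. Igkv4-62 rose 9.05-fold, with 185, 213 and 195 counts in Mc5r-null and 26, 23 and 22 in WT. The 5th was the much more abundant Igkv14-100 (68519012 to 68519477, plus strand), with 1344, 1329 and 1229 counts in Mc5r-null and 174, 169 and 158 in WT (log2 fold change 3.08 ± 0.06 SE, edgeR adjusted p = 5.63e-09). Its share of Igkv counts was 0.833 ± 0.0418% in Mc5r-null and 0.294 ± 0.0118% in WT (SD, n = 3 each). All of these had lower counts in every WT library than in any Mc5r-null library.

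At the other end, some segments fell or did not follow the locus. Igkv1-133 (67724902 to 67725661, plus strand) had 46, 51 and 54 counts in the Mc5r-null libraries and 134, 136 and 127 in the WT libraries, and fell 2.41-fold (log2 fold change -1.27 ± 0.11 SE, edgeR adjusted p = 6.68e-05). Its nearest relative among the Igkv rows, Igkv1-135, rose, with a log2 fold change of 1.93, and held 4988, 4524 and 4887 counts in Mc5r-null and 1408, 1325 and 1372 in WT. The 2 are 95.9% identical over the last 270 transcript bases. Igkv8-26 (70193228 to 70193797, plus strand) had 2, 3 and 3 counts in Mc5r-null and 27, 30 and 30 in WT (log2 fold change -3.26 ± 0.30 SE, edgeR adjusted p = 8.45e-05). It was the least counted member in Mc5r-null. Igkv8-26 entered the test only through the WT libraries, so its p-value is no independent support for a fall. Igkv12-89 had 109, 120 and 99 counts in Mc5r-null and 123, 142 and 124 in WT, and was not called (log2 fold change -0.12 ± 0.11 SE, edgeR adjusted p = 0.448). Igkv5-37 had 57, 66 and 62 counts in Mc5r-null and 57, 72 and 62 in WT and was not called either (edgeR adjusted p = 0.727). For both segments the share of Igkv counts was lower in Mc5r-null: 0.0700 ± 0.00649% in Mc5r-null against 0.228 ± 0.0173% in WT for Igkv12-89, and 0.0395 ± 0.00260% in Mc5r-null against 0.112 ± 0.0129% in WT for Igkv5-37 (SD, n = 3 each). Igkv6-13 was the called member with the smallest rise, 1.16-fold (edgeR adjusted p = 0.0225), with 474, 491 and 447 counts in Mc5r-null and 429, 456 and 437 in WT, and its call was lost when Mc5r-null replicate 1 or 2 or WT replicate 1 or 3 was left out (adjusted p in edgeR 0.0619 to 0.0821) and with DESeq2. Igkv4-86 rose 1.39-fold (edgeR adjusted p = 0.00258) with 245, 230 and 216 counts in Mc5r-null and 177, 183 and 183 in WT.

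**Figure D3:**
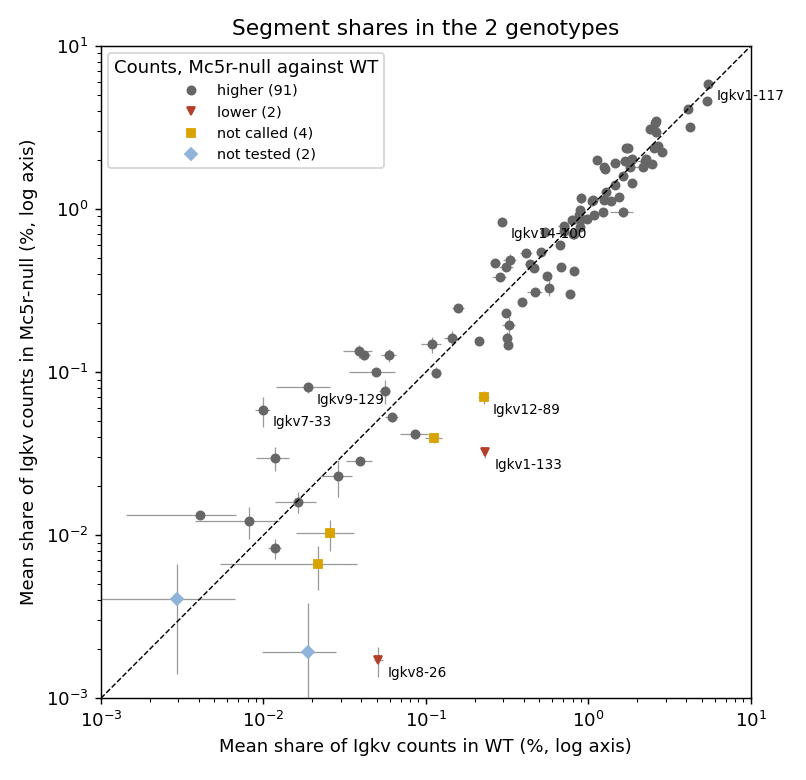
Mean share of Igkv counts in Mc5r-null (%, y axis, log scale) against that in WT (%, x axis, log scale) for the 99 members with a count in WT, with SDs over 3 libraries as bars and markers for the edgeR call on counts; the dashed line marks equal shares. Abundant segments lie close to the line, Igkv7-33, Igkv9-129 and Igkv14-100 lie above it, and Igkv1-133, Igkv8-26 and Igkv12-89 lie below it.

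Seen as shares of the locus, 34 members were higher in every Mc5r-null library than in any WT library, 44 were lower and 22 overlapped. By CPM, 92 members were higher in every Mc5r-null library than in any WT library, 2 were lower and 6 overlapped. The CPM of the genotypes did not overlap for 49.8% of all 15257 genes tested. Of these genes, 3211 were higher and 4383 (28.7% of those tested) were lower in Mc5r-null. The value for all genes compares with the members' CPM and not with their shares. The largest gains of share were in Igkv4-72, with 2.0005 ± 0.0738% of Igkv counts in Mc5r-null and 1.13 ± 0.0285% in WT, and in Igkv6-17, with 3.46 ± 0.0382% in Mc5r-null and 2.62 ± 0.0687% in WT (SD, n = 3 each). Igkv4-72 rose 5.29-fold (edgeR adjusted p = 1.84e-09), with 3102, 3258 and 3007 counts in Mc5r-null and 632, 644 and 653 in WT, and Igkv6-17 rose 3.94-fold. Igkv5-39 followed, with 3.35 ± 0.0354% in Mc5r-null and 2.58 ± 0.0129% in WT. The largest losses of share were in Igkv8-30, with 3.18 ± 0.134% in Mc5r-null and 4.25 ± 0.152% in WT, and in Igkv10-96. Igkv8-30 ranked 6 by counts in Mc5r-null and 3 in WT, and its counts still rose 2.24-fold (edgeR adjusted p = 1.299e-07). Igkv6-15 and Igkv6-25, ranked 5 and 6 in WT, held 2.24 ± 0.0750% and 2.45 ± 0.0467% in Mc5r-null and 2.83 ± 0.0510% and 2.67 ± 0.0300% in WT. Shares sum to 100% in a library, so a gain in 1 segment lowers the others.

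By family, Igkv4, Igkv1 and Igkv6 led in both genotypes. The 28 members of Igkv4 held 14.7 ± 0.101% of Igkv counts in Mc5r-null and 13.7 ± 0.341% in WT (SD, n = 3 each). The 9 members of Igkv1 held 14.001 ± 0.174% in Mc5r-null and 13.2 ± 0.344% in WT. The 9 members of Igkv6 held 13.4 ± 0.0906% in Mc5r-null and 14.4 ± 0.161% in WT, so Igkv6 came after Igkv4 and Igkv1 in Mc5r-null and before both in WT. Of the 20 families in the table, 18 had a member. The shares of the genotypes did not overlap for 13 of these 18, with 8 higher and 5 lower in Mc5r-null. The CPM of the groups did not overlap for 49.8% of all genes tested, but that is CPM of single genes and not a family's share.

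The families with a higher share in Mc5r-null were Igkv1, Igkv4, Igkv5, Igkv7, Igkv9, Igkv11, Igkv15 and Igkv17. Igkv9 had the largest gain of share, with 3.91 ± 0.0885% in Mc5r-null and 2.78 ± 0.132% in WT, and its summed CPM was 4.10 times as high in Mc5r-null. Its 4 members were all called higher, and Igkv9-120 made up 49.3% of it in Mc5r-null. Igkv5 held 7.52 ± 0.0255% in Mc5r-null and 6.55 ± 0.0840% in WT, led by Igkv5-39. Igkv17 held 4.01 ± 0.129% in Mc5r-null and 3.54 ± 0.219% in WT. Igkv15, with Igkv15-103 as its only member, held 2.95 ± 0.172% in Mc5r-null and 2.601 ± 0.0291% in WT. Igkv7 and Igkv11, each with 1 member, held 0.0586% and 0.1002% in Mc5r-null and 0.00997% and 0.0493% in WT on average.

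The families with a lower share were Igkv2, Igkv3, Igkv6, Igkv8 and Igkv10. Igkv8 held 6.96 ± 0.0790% in Mc5r-null and 8.78 ± 0.200% in WT, the widest gap of any family, and its summed CPM was 2.32 times as high in Mc5r-null. Of its 9 tested members, 8 rose and Igkv8-26 fell. Igkv10 held 6.13 ± 0.0315% in Mc5r-null and 7.33 ± 0.110% in WT, and Igkv10-96 made up 75.5% of it in Mc5r-null. Igkv3, the family next to Igkc, held 7.95 ± 0.152% in Mc5r-null and 8.72 ± 0.483% in WT. Igkv2 held 1.86 ± 0.0491% in Mc5r-null and 2.20 ± 0.0780% in WT. The shares of Igkv12, Igkv13, Igkv14, Igkv16 and Igkv19 overlapped between the genotypes. Igkv19-93, the only member of Igkv19, held 1.81 ± 0.0556% in Mc5r-null and 1.803 ± 0.0148% in WT.

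**Figure D4:**
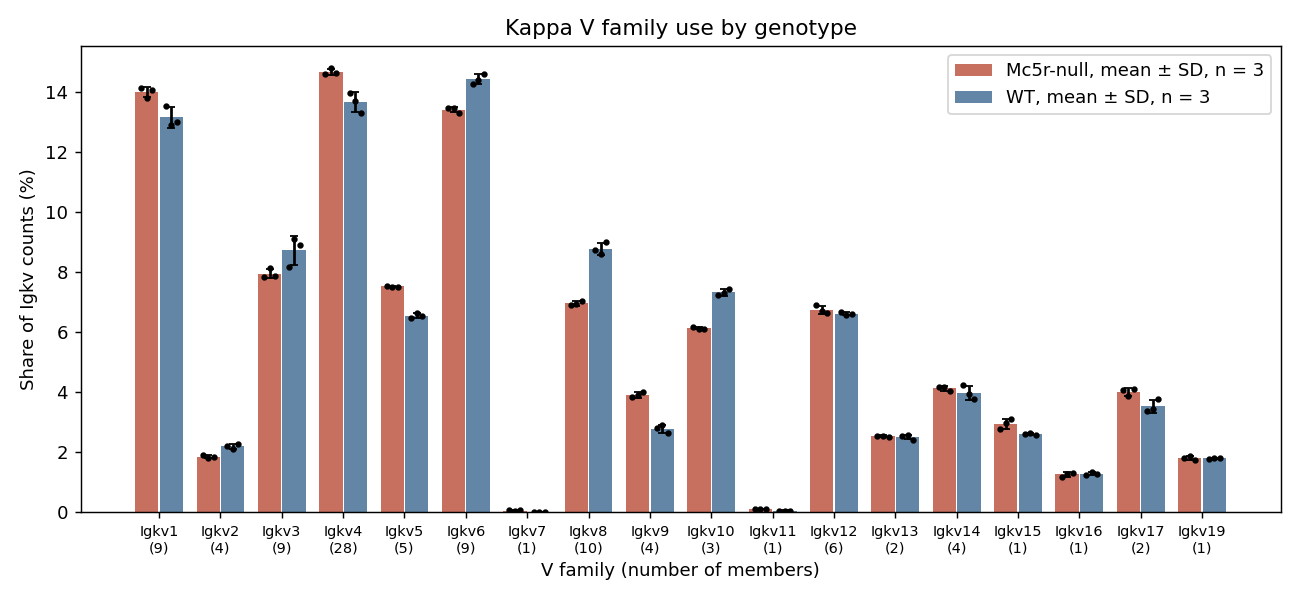
Share of Igkv counts (%, y axis) of each of the 18 V families (x axis, number of members in brackets) in Mc5r-null (left bar) and WT (right bar); bars are means, whiskers SDs and points the 3 libraries. Igkv8 and Igkv10 were lower in every Mc5r-null library, and Igkv9 and Igkv5 were higher.

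Along the locus, the rise was spread over the whole 3149 kb that the Igkv rows span. Ordered by position, the 20 members farthest from Igkc (Igkv2-137 to Igkv1-110) held 25.5 ± 0.281% of Igkv counts in Mc5r-null and 23.5 ± 0.421% in WT (SD, n = 3 each). The next 20 (Igkv2-109 to Igkv4-78) held 19.8 ± 0.0861% in Mc5r-null and 20.97 ± 0.0401% in WT. The middle 20 (Igkv4-77 to Igkv4-53) held 12.04 ± 0.141% in Mc5r-null and 10.7 ± 0.324% in WT. The following 20 (Igkv4-51 to Igkv6-25) held 23.5 ± 0.0962% in Mc5r-null and 24.1 ± 0.120% in WT. The 20 nearest to Igkc (Igkv8-24 to Igkv3-1) held 19.2 ± 0.134% in Mc5r-null and 20.8 ± 0.651% in WT. Cut at the midpoint of the locus, the 59 members nearer Igkc held 54.7 ± 0.209% in Mc5r-null and 55.5 ± 0.380% in WT (exact permutation p = 0.1). The 38 members on the plus strand, the strand of Igkc, held 46.02 ± 0.0763% in Mc5r-null and 44.3 ± 0.112% in WT (exact permutation p = 0.1). Neither share overlapped between the genotypes. The median log2 fold change was 1.54 on both strands.

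Libraries of a genotype resembled each other closely in segment use. The distance between 2 libraries, the percentage of Igkv counts that would have to move to another segment to make them equal, was between 9.95% and 10.9% for the 9 pairs across genotypes. It was between 2.08% and 2.31% within Mc5r-null and between 2.68% and 2.85% within WT, where fewer counts were drawn. The mean distance across genotypes exceeded that within them by 7.89 points (one-sided exact permutation p = 0.1, the smallest possible). A chi-square statistic over its degrees of freedom, which is 1 on average when libraries differ by counting noise alone, was 32.9 to 35.7 across genotypes. Within a genotype it was 2.72 to 3.21 for Mc5r-null pairs and 1.79 to 2.11 for WT pairs. Over all other genes the same ratio was 6.30 to 8.11 within Mc5r-null and 5.95 to 6.47 within WT, higher than for the Igkv counts. Beyond counting noise the ratio grows with the depth of the genes in it, so it does not rank these sets by variability. The segment with the largest part in the spread within Mc5r-null was Igkv3-4, with 11.8% of the chi-square statistic over the 3 libraries, and within WT it was Igkv4-57, with 12.8%. Igkv3-4 had 2850, 3450 and 2867 counts in the Mc5r-null libraries and 1116, 1356 and 1335 in the WT libraries. Igkv4-57 had 1605, 1425 and 1475 counts in Mc5r-null and 1100, 857 and 817 in WT, and Igkv3-2 had 2736, 2822 and 2885 in Mc5r-null and 1115, 1395 and 1169 in WT.

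Segments of a family are alike in sequence, and how the counting treated reads that match several of them is not stated in any label, so the split among close relatives is uncertain. Over the last 270 transcript bases the median identity of a member to its nearest Igkv row was 94.8%, and the lowest was 75.4%. There were 3 pairs of members at 98% or more. Igkv5-45 and Igkv5-43 were 98.9% identical and rose 3.91-fold and 3.28-fold. Igkv6-29 and Igkv6-20 were 98.1% identical and rose 4.22-fold and 4.01-fold. Igkv3-10 and Igkv3-5, also at 98.1%, rose 2.67-fold and 2.86-fold. The members of each of these pairs thus had similar changes. That did not hold for every close pair under 98%. Igkv8-26, which fell, was 97.0% identical to Igkv8-18, which had 121, 138 and 98 counts in Mc5r-null and 30, 31 and 34 in WT. The part of shared reads in any of these values was not tested.

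Of the Igkv rows, 100 are annotated as V gene segments and 60 as V pseudogenes, and the members were 95 gene segments and 5 pseudogenes. The pseudogene members together held 0.0534 ± 0.00265% of Igkv counts in Mc5r-null and 0.0669 ± 0.00335% in WT (SD, n = 3 each). Igkv4-56 and Igkv2-116 were called higher, both having passed the filter only through the Mc5r-null libraries, Igkv4-77 and Igkv4-73 were not called (edgeR adjusted p = 0.614 and 0.899), and Igkv4-60 was not tested. The rows outside the minimum were 49 with no count and 11 with 1 to 14 counts, and these held 14, 23 and 17 counts in the Mc5r-null libraries and 5, 6 and 8 in the WT libraries. Just outside it were Igkv4-92 with 2, 8 and 4 counts in Mc5r-null and 0 in each WT library, Igkv3-11 with 1, 3 and 2 in Mc5r-null and 2, 2 and 4 in WT, and Igkv4-81 with 4, 1 and 3 in Mc5r-null and 2, 0 and 3 in WT. Just inside were Igkv4-60 with 3, 11 and 5 counts in Mc5r-null and 0, 1 and 4 in WT, and Igkv8-34 with 6, 3 and 0 in Mc5r-null and 10, 6 and 16 in WT, both untested. Igkv4-78 had 15, 12 and 12 counts in Mc5r-null and 6, 7 and 7 in WT, and its call (edgeR adjusted p = 0.0270) was lost without any 1 of the 6 libraries (edgeR adjusted p between 0.0544 and 0.0933).

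Other light chain genes rose too. Of the 10 lambda genes, 7 were tested and all 7 were higher, against 16.8% higher among all genes tested. Their median log2 fold change was 1.797. The lambda constant gene Iglc1 had 5086, 5037 and 4978 counts in Mc5r-null and 1610, 1571 and 1550 in WT and rose 3.47-fold (edgeR adjusted p = 9.36e-10). Iglc2 rose 2.99-fold, Iglc3 3.72-fold, Iglv1 3.61-fold, Iglv2 3.15-fold and Iglv3 2.89-fold. Iglj2, a lambda joining segment, passed the filter through the Mc5r-null libraries alone, since WT replicate 3 was under its minimum. Its call was lost when any library but WT replicate 3, which had 1 count, was left out (adjusted p in edgeR 0.0690 to 0.109), and with no filter on low counts (0.101). Of the kappa joining segments, Igkj3 and Igkj5 were called higher, Igkj4 was not (edgeR adjusted p = 0.0578), and Igkj1 and Igkj2 were not tested. Igkj3 had 4, 6 and 5 counts in the WT libraries and Igkj5 had 6 in each. Igkj3, Igkj4 and Igkj5 were under the filter's minimum in every WT library and entered the test only through the Mc5r-null libraries. The calls of Igkj3 and Igkj5 are thus no independent support for a rise. The call of Igkj3 was lost when Mc5r-null replicate 1 or WT replicate 1 or 3 was left out (adjusted p in edgeR 0.0578 to 0.0785).

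Genes that act before or during light chain assembly showed other patterns. The surrogate light chain, which pairs with the heavy chain before a kappa or lambda chain exists, is encoded by Igll1, Vpreb1 and Vpreb2. The related gene Vpreb3 was listed with them. All 4 listed genes were lower in Mc5r-null, against 16.1% lower among all genes tested. Their median was -1.14 on the log2 fold change scale. Igll1 had 104, 110 and 89 counts in Mc5r-null and 274, 258 and 266 in WT, and fell 2.42-fold (edgeR adjusted p = 2.92e-05). Vpreb1 fell 2.16-fold, Vpreb2 2.25-fold and Vpreb3 1.55-fold, and Vpreb2 was not called once Mc5r-null replicate 1 was left out (adjusted p in edgeR 0.0644). The recombinase genes were low in both genotypes and were not called. Rag1 had 91, 109 and 115 counts in Mc5r-null and 135, 108 and 112 in WT (edgeR adjusted p = 0.810), and Rag2 had 30, 29 and 31 in Mc5r-null and 33, 39 and 43 in WT (edgeR adjusted p = 0.393). Of 11 genes of V(D)J recombination, 3 were higher and none lower, which were the terminal transferase gene Dntt (1.79-fold) and the end-joining genes Xrcc5 (1.34-fold) and Xrcc4 (1.299-fold), against 16.8% higher among all genes tested. Xrcc4 was not called when Mc5r-null replicate 2 or 3 or WT replicate 1 was left out (adjusted p in edgeR 0.0558 to 0.0570), nor with DESeq2 (adjusted p 0.0797). Of 12 transcription factor genes of the kappa locus and its enhancers, 5 were higher and 2 lower, against 16.8% higher and 16.1% lower among all genes tested, so the share lower was near that of all genes. Irf4, which also drives plasma cell differentiation, rose 2.37-fold, and Pou2af1, the B cell coactivator of octamer-binding factors, 2.08-fold. Ikzf3 rose 2.17-fold, Foxo1 1.67-fold and Pou2f2 1.32-fold, while Spib fell 2.14-fold and Spi1 1.13-fold.

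Markers of the cells that could carry these transcripts were read beside them. Of 12 plasma cell genes, 11 were higher and none lower, against 16.8% higher among all genes tested. Their median log2 fold change was 1.12, and their summed level was 3083 to 6062 CPM in Mc5r-null and 2039 to 2083 CPM in WT. None was without counts. Jchain, the joining chain of secreted IgA and IgM, set the range, with 78743, 77347 and 36618 counts in the Mc5r-null libraries and 26654, 26196 and 25975 in the WT libraries. It was low in Mc5r-null replicate 3, in which the Igkv share was no lower than in the other 2, and its call (edgeR adjusted p = 0.0427) was lost without any 1 library but that one (edgeR adjusted p between 0.118 and 0.131) and with no filter on low counts (0.0692). Sdc1, which encodes the plasma cell antigen CD138, had 979, 931 and 1046 counts in Mc5r-null and 517, 516 and 450 in WT and rose 2.17-fold (edgeR adjusted p = 7.46e-06). Tnfrsf17, the receptor gene BCMA, rose 2.93-fold, Derl3 2.72-fold and Mzb1 2.28-fold. Fkbp11 was the gene not called, with 13.2 ± 0.704 CPM in Mc5r-null and 16.2 ± 1.298 CPM in WT (SD, n = 3 each; edgeR adjusted p = 0.0530), and it was called lower when WT replicate 1 was left out (adjusted p in edgeR 0.0308). The call of Eaf2 was lost without Mc5r-null replicate 2 or WT replicate 2 (edgeR adjusted p = 0.0611 and 0.0590), and that of Cd38 with DESeq2 (adjusted p 0.114).

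Markers of other B lineage stages did not move in a single direction. Of the 11 mature B cell genes reported here, 9 were tested and 2 were called, both higher, against 16.8% higher among all genes tested. The share called higher was thus near that of all genes, and the tested genes that were not called went in both directions. The summed level over the 11 was 309 to 319 CPM in Mc5r-null and 249 to 264 CPM in WT. Ms4a1, which encodes CD20, rose 3.42-fold and Cd79a, a signalling chain of the B cell receptor, 1.97-fold. H2-Ob was also called higher when WT replicate 1 or 2 was left out (adjusted p in edgeR 0.00190 and 0.0186) and with DESeq2 (adjusted p 0.00485), Cd79b was when Mc5r-null replicate 3 was left out (adjusted p in edgeR 0.0257), and Blk was called lower when Mc5r-null replicate 2 was left out (adjusted p in edgeR 0.0396). Of 12 genes of pro-B and pre-B cells, 5 were lower and 1 higher, against 16.1% lower and 16.8% higher among all genes tested, with 649 to 665 CPM in Mc5r-null and 701 to 714 CPM in WT. The gene that rose, Erg, is also expressed in stem cells. Pax5, the factor that holds B cell identity and is silenced in plasma cells, fell 2.003-fold. Of the 8 LSK genes, 6 were higher and none lower, against 16.8% higher among all genes tested. With DESeq2 the call of Kit was lost (adjusted p 0.0701) and Hlf was called higher (adjusted p 0.00538), as it was in edgeR without WT replicate 2 (adjusted p = 2.30e-05). The part of cells of these types in the Igkv values was not tested. Among other lineages, 2 of 4 tested T cell genes and 5 of the 5 erythroid genes reported here were higher, against 16.8% of all genes tested. Of these, Cd3e had 0, 5 and 5 counts in the WT libraries and the erythroid gene Alas2 had 0, 4 and 6. Both were under the filter's minimum in every WT library and entered the test only through the Mc5r-null libraries. Their calls are thus no independent support for a rise. Of 6 neutrophil genes, 5 were lower, against 16.1% of all genes tested. The calls of the T cell gene Cd3e and the neutrophil gene S100a9 were lost when single libraries were left out (adjusted p in edgeR 0.0621 for Cd3e without Mc5r-null replicate 3, and 0.0649 to 0.104 for S100a9 without any library but WT replicate 3). The call of S100a9 was also lost with no filter on low counts (adjusted p in edgeR 0.0620).

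**Figure D5:**
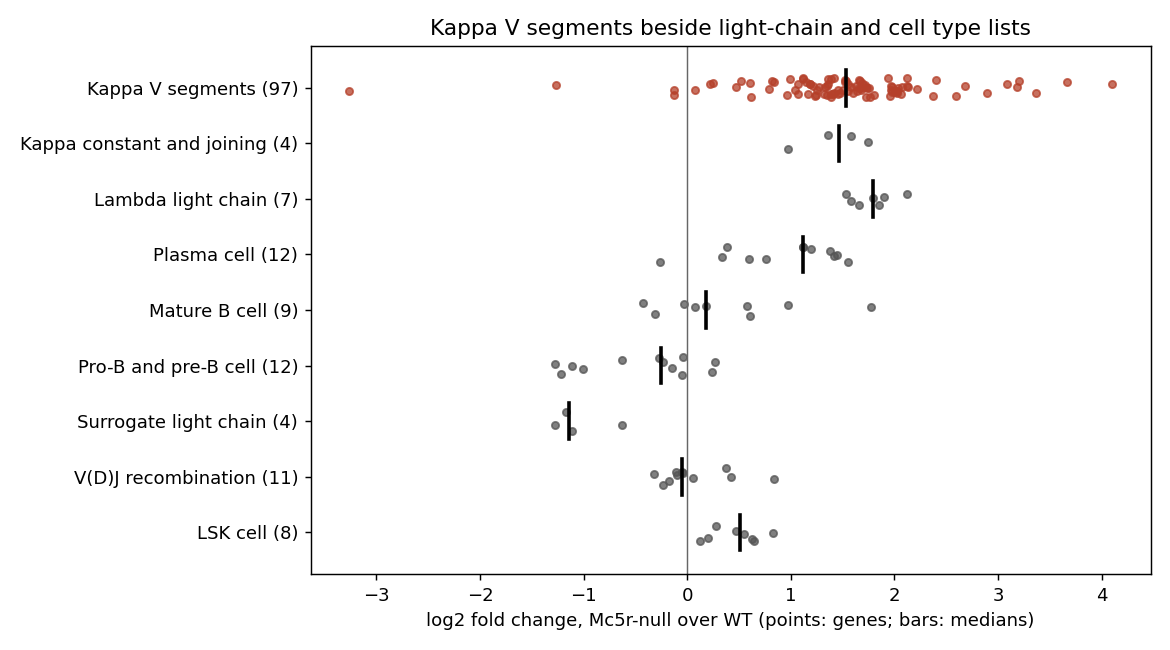
Fitted log2 fold changes, Mc5r-null over WT (x axis), of the 97 tested kappa V segments with a count in WT and of the genes of 8 lists (rows; number of tested genes in brackets); points are genes and bars medians. Kappa, lambda and plasma cell genes lie mostly above 0, surrogate light chain genes below 0, and genes of V(D)J recombination around 0.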

How the data were processed

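Poly-A RNA was sequenced as paired-end stranded libraries, per the labels' protocols. The authors deposited 1 table of 55487 genes with raw whole-number counts and FPKM values per library. The submitters' processing notes list CASAVA 1.8, HISAT2, StringTie, edgeR and the build GRCm38 without roles. The counting program, its use of strand and its treatment of reads that match several segments are not given in the sources used here. All 160 Igkv rows had the coordinates of GENCODE M21 (GRCm38), from which strand, kind of segment and sequences were taken.

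The counts went into edgeR 4.0.16 under R 4.3.3, with filterByExpr with its defaults (minimum count 10, minimum total 15), TMM scaling and the robust quasi-likelihood F-test for genotype on all 15257 genes kept. A gene was called below 0.05 after Benjamini-Hochberg adjustment. CPM divides by the library's total of gene counts. Single library values were compared with exact permutation tests. Scripts were tested on simulated counts. Alternatives were RLE scaling, TMM without immunoglobulin genes, no filter, DESeq2 1.42.0, the replicate block, FPKM in place of counts, members from 5 or 50 counts, gene segments without pseudogenes, and leaving out each library.

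The members, the gene lists and the rule for naming segments were chosen with earlier results of these data known. The rule took the 6 largest shares per genotype, the 5 largest and 5 smallest fold changes at an average of at least 1 log2 CPM, members called lower, the 2 largest share differences each way, rows at the minimum, and up to 4 genes per list. Igkv1-135, Igkv3-4, Igkv4-57, Igkv3-2, Igkv4-56, the near-identical pairs, family leaders and the list genes Cd3e, S100a9, Erg, Pax5, Ms4a1, Fkbp11, Eaf2, Jchain, Ikzf3, Foxo1, Pou2f2, Spib, Spi1, Kit and Ly6a were named after their values were seen. So were the list genes Tnfrsf17, Cd38, Blk, Bank1, Hlf and Alas2. A gene each of the mature B cell and erythroid lists is not reported here and was left out of the lists' counts and levels.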

Additional observations from a re-analysis of the deposited data

How the results depend on the processing

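The counts of members called higher were 92, 92, 92, 90 and 89 with RLE scaling, with TMM computed without immunoglobulin genes, with no filter, with the replicate block and with DESeq2, and between 89 and 90 without single libraries; each was a subset of the 92, and the segments lost were Igkv1-122, Igkv4-78 and Igkv6-13. Igkv1-133 and Igkv8-26 were called lower in each of these fits. In every edgeR fit with the filter, Igkv8-26 again entered only through WT libraries, so these repeats add no independent support for its fall. Libraries with the same number in both genotypes did not deviate together (correlations of 0.00255, -0.0408 and -0.0240 over 15257 genes), so the reported values come from a fit without the block. The share of the locus, the usage distance, the share nearer Igkc, the plus-strand share and the ratio to Igkc kept their direction under every alternative run. The Effective number of Igkv segments did not: Mc5r-null minus WT was -0.391 with counts, 0.533 with FPKM, and -0.502 to -0.225 without single libraries. The cause was not tested, and FPKM differs by the length assigned to each row. Of the genes not called, Rag1 and Bank1 changed sign when single libraries were left out: the log2 fold change of Rag1 ran from -0.120 to 0.0526 and the log2 fold change of Bank1 from -0.292 to 0.114. Among named list genes, the replicate block ended the calls of Jchain, Iglj2 and Igkj3 (edgeR adjusted p 0.122, 0.101 and 0.0511) and added one for H2-Ob (0.0386). Segments under 1000 counts carry the least depth, and 2 members could not be tested at this depth.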
